A study of Mus musculus with 23 samples.

Results

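Acta2 encodes smooth muscle alpha-actin, and its level was used to divide the single mouse bone marrow-derived mesenchymal stem cells (mMSCs) into 8 Acta2-high and 8 Acta2-low cells. The 16 mMSCs were ranked by their Acta2 FPKM (fragments scaled by exon length and by the mapped fragments of the library), and the members of each group were chosen by this value alone, the 8 highest against the 8 lowest. These 16 cells are part of a series of 23 libraries, which also holds 5 single HL-1 cardiomyocytes (HL1cm) and a population control of each cell type (mMSC-PC and HL1cm-PC). The mMSCs came from C57BL/6J mice, which were 3-month-old males by the methods of the study, and were grown to passages 6 to 11, with no treatment named. HL1cm is a mouse cardiomyocyte line, used at passages 70 to 85. All single cells were captured on the same microfluidic device. The labels name no separate cultures or animals, so the mMSCs are 1 sample, the cells within it are not replicates of a condition, and no p-value is given for any difference between them. The comparison asks whether other contractile genes, and which further genes, were high in the cells with high Acta2.

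Smooth muscle alpha-actin is the actin of the thin filament of smooth muscle, and cultured fibroblasts and stromal cells make it when they build contractile stress fibres. In smooth muscle its gene is switched on together with those of calponin, transgelin, tropomyosin and the myosin light chains, through serum response factor and its myocardin family partners, which bind a DNA element called the CArG box. TGF-beta signalling, a stiff substrate and the TEAD factors that partner YAP are known inputs to the same genes. Late markers such as the smooth muscle myosin heavy chain Myh11 separate mature smooth muscle from other Acta2-positive cells.

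The number of genes that reached 1 FPKM was similar in most mMSCs. The Acta2-high cells held 6638 to 7169 such genes, with a median of 6876. The Acta2-low cells held 5175 to 7234, with a median of 6843. Both mMSCs with the fewest genes, mMSC9 with 5175 and mMSC15 with 5835, were Acta2-low cells, and their smallest values also stood apart. An index of the FPKM worth of a fragment on 1 kilobase, where a larger index means a shallower library, was 13.1 in mMSC9 and 9.83 in mMSC15 against 2.69 to 7.20 in the other 14 mMSCs. Gapdh, a glycolytic enzyme of general use, lay at 160 to 320 FPKM in the Acta2-high cells and at 157 to 286 FPKM in the Acta2-low cells. The cells kept their group when they were ranked by Acta2 over Gapdh.

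Acta2 was above 0 in all 16 mMSCs and spanned a 66.4-fold range. In the Acta2-high cells it was 2222 FPKM in mMSC14, 1933 in mMSC2, 1416 in mMSC3, 1356 in mMSC16, 972 in mMSC7, 968 in mMSC8, 635 in mMSC12 and 569.6 in mMSC10. In the Acta2-low cells it was 539 FPKM in mMSC11, 499 in mMSC15, 420.4 in mMSC1, 316 in mMSC5, 296 in mMSC6, 189.7 in mMSC9, 122 in mMSC13 and 33.5 in mMSC4. The levels formed a gradient, and mMSC10 and mMSC11, on either side of the division, differed by 1.06-fold. The mean log2 FPKM was 10.2 ± 0.71 (SD, n = 8 cells) in the Acta2-high cells and 7.85 ± 1.34 (SD, n = 8 cells) in the Acta2-low cells, a difference fixed by the ranking. The population control mMSC-PC held 2233 FPKM, above every single mMSC. The 5 HL1cm held 798 to 3532 FPKM with a median of 1523, so the cardiomyocyte line overlapped the Acta2-high mMSCs.

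**Figure D1:**
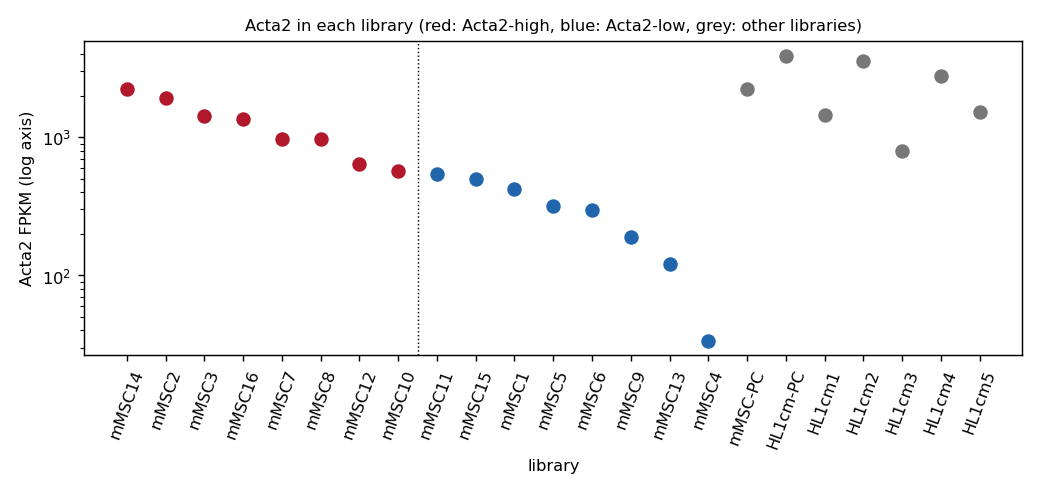
Acta2 FPKM on a log axis in each library, with 1 point per library in order of Acta2 for the 16 mMSCs, followed by the population controls and the 5 HL1cm. The mMSCs fall gradually from 2222 to 33.5 FPKM, with 569.6 and 539 FPKM on either side of the dotted line that divides the Acta2-high (red) from the Acta2-low cells (blue).

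Acta2 lies on chromosome 19, positions 34241090 to 34255590 on the minus strand of mm10 (GENCODE M21, ENSMUSG00000035783.9). None of the 1961 stretches of 75 bases in its longest transcript occurs exactly in a transcript of Acta1, Actb, Actc1, Actg1 or Actg2, so whole reads of the length sequenced were not shared exactly with the other actin genes.

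The promoter windows of the actin and contractile genes were searched for the CArG box and for the TEAD element MCAT, spelled CATTCC, on both strands of the 250 bases before the RefSeq start (GRCm38.p6). The sites shown are those of Acta2 and of 4 actin, contractile or adhesion genes whose windows held a CArG box, with the matched letters in capitals and up to 10 bases on either side.
Acta2, CArG box with 1 inner base free, chr19:34255438-34255467, minus strand: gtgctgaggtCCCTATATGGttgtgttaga
Acta2, CArG box with 1 inner base free, chr19:34255388-34255417, minus strand: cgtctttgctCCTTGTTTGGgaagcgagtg
Acta2, MCAT, chr19:34255504-34255529, minus strand: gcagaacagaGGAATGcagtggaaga
Myl9, CArG box, chr2:156775293-156775322, plus strand: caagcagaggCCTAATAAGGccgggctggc
Myl9, CArG box with 1 inner base free, chr2:156775355-156775384, plus strand: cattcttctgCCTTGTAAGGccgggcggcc
Myl6, CArG box, chr10:128493040-128493069, minus strand: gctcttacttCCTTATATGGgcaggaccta
Actg1, CArG box, chr11:120348566-120348595, minus strand: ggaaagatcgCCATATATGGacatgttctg
Vcl, CArG box, chr14:20929161-20929190, plus strand: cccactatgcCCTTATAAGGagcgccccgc
Vcl, MCAT, chr14:20929245-20929270, plus strand: ccctcccttgGGAATGggggcggggc
The Acta2 matches began 84, 34 and 146 bases before the RefSeq start, and GENCODE M21 places them in the 5′ untranslated exon of a longer Acta2 transcript. The RefSeq table holds 32851 promoter windows of 27025 genes. Of these genes 1.62% held a CArG box in a window, 9.78% held one or a form with 1 inner base free, and 14.4% held the MCAT letters. Among the 8 counted contractile filament genes with a window, 2 held a CArG box (Myl6 and Myl9) and 2 the MCAT letters (Tpm1 and Cald1), while the window of Cnn1 held no match and Tagln had no window in the table. Among 23 counted stress fibre and focal adhesion genes with a window, 3 held a CArG box (Vcl, Fermt2 and Cnn2) and 7 the MCAT letters. A CArG box or a form with 1 inner base free was held by 2 of the 8 and 6 of the 23. A match describes the letters of the window and is no evidence of binding.

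Genes were counted where they reached 1 FPKM in at least 12 of the 16 mMSCs, so that at least 4 cells of each group held them, which left 4677 genes besides Acta2. For each gene the difference is the mean log2 FPKM of the Acta2-high cells minus that of the Acta2-low cells, with values under 1 FPKM set to 1. A gene was called higher or lower where this difference was at least 1, a 2-fold step. By this measure 427 genes were higher, 9.13% of those counted, and 324 were lower, 6.93%. Gene lists with 12 or fewer counted genes are too short to be read against these shares. The median difference over all counted genes was 0.03, with 52.0% of them above 0, and the middle 90% of genes lay between -1.15 and 1.28. Single cells moved many genes, since 439 of the 751 calls fell under the step when 1 of the 16 cells was left out. A value of 0 for a gene such as Canx, an endoplasmic reticulum chaperone listed at 0 in mMSC12 and at 944 FPKM or more in every Acta2-low cell, may be a failed estimate, and a gene is therefore described as listed at 0.

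Contractile filament genes of smooth muscle stood on the Acta2-high side. The list, chosen with earlier results of these data known, holds 21 genes besides Acta2, of which 15 reached 1 FPKM in at least 1 mMSC and 9 were counted. Tagln, Myl9 and Cnn1 were higher in the Acta2-high cells, 33.3% of the 9 against the 9.13% of all counted genes, and none was lower. With 9 counted genes the list is too short to be read against that share. The median difference over the 9 was 0.62, or 0.36 without mMSC13, and 8 of them were above 0, as were 52.0% of all counted genes. Over the 15 detected genes, whether or not they were counted, it was 0.52 and positive for 12.

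Tagln (chromosome 9, 45929619 to 45936058, minus strand) encodes transgelin, an actin-binding protein of smooth muscle and an early marker of that lineage. In the Acta2-high cells, in order of falling Acta2, it was 249, 265, 286, 511, 3.45, 0, 50.3 and 111 FPKM. In the Acta2-low cells, in the same order, it was 0, 19.7, 0, 62.8, 8.85, 8.22, 8.43 and 0 FPKM. The 4 cells with the most Acta2 were also the 4 with the most Tagln, while mMSC7, mMSC8 and mMSC12 lay within the Acta2-low range. The difference was 3.48 on the log2 scale, and it ranged from 3.04 to 4.33 when each cell was left out in turn.

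Myl9 (chromosome 2, 156775420 to 156781658, plus strand) encodes the regulatory myosin light chain whose phosphorylation switches on smooth muscle contraction. In the Acta2-high cells it was 688, 238, 618, 1069, 99.7, 209, 433 and 251 FPKM in order of falling Acta2. In the Acta2-low cells it was 373, 248, 64.3, 0, 30.1, 78.6, 28.2 and 31.6 FPKM. Every Acta2-high cell lay above the 6 lowest Acta2-low cells, and only mMSC11 and mMSC15, the Acta2-low cells closest to the division, overlapped them. The difference was 3.03, or 2.25 without mMSC5, where Myl9 was listed at 0.

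Cnn1 (chromosome 9, 22099216 to 22109630, plus strand) encodes calponin 1, which binds actin and damps the myosin ATPase in smooth muscle. In the Acta2-high cells it was 73.8, 80.6, 49.3, 49.1, 11.9, 35.3, 0 and 49.7 FPKM in order of falling Acta2. In the Acta2-low cells it was 38.2, 45.4, 4.60, 0, 6.75, 0, 9.22 and 0 FPKM. As for Myl9, mMSC11 and mMSC15 held levels like those of most Acta2-high cells, and the other 6 Acta2-low cells did not exceed 9.22 FPKM. Because mMSC12, an Acta2-high cell, was listed at 0, the Acta2-high range took in every Acta2-low cell. The difference was 2.40, and it ranged from 2.06 to 3.08 when each cell was left out in turn.

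The other counted members of the list differed by less than the 2-fold step. Myl6, the essential light chain of smooth muscle and non-muscle myosin, had a lowest, median and highest value of 1771, 2189 and 2595 FPKM in the Acta2-high cells against 996, 1414 and 1978 FPKM in the Acta2-low cells. Its difference was 0.62 (log2 means 11.1 ± 0.23 and 10.4 ± 0.37, SD, n = 8 cells each), and 5 Acta2-high cells lay above every Acta2-low cell. Tpm1, a tropomyosin that lines the actin filament, had values of 302, 594 and 705 FPKM against 178, 425 and 541 FPKM, a difference of 0.47. For Tpm1 the cells spread widely beside this difference, and mMSC12 and mMSC10, both Acta2-high, lay below the Acta2-low median at 302 and 334 FPKM. The ranks of Myl6 and Tpm1 followed Acta2 with Spearman's rho of 0.67 and 0.69 over the 16 cells. Tpm2, another tropomyosin, differed by 0.65, which became -0.05 without mMSC13, where it was listed at 0. Cald1, the actin-binding caldesmon, differed by 0.32, Ppp1r12a, the targeting subunit of myosin phosphatase, by 0.05, and Pdlim7, a PDZ and LIM scaffold of actin bundles, by -0.24.

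The remaining members were too sparse to be counted. Csrp1 and Smtn, a LIM protein and smoothelin, reached 1 FPKM in 11 mMSCs each and differed by 1.04 and 0.52. Mylk, the kinase of the myosin light chain, reached it in 8 mMSCs, Lmod1 and Ppp1r12b in 4 each, and Actg2, the gamma-actin of smooth muscle, in 2. Mylk and Lmod1 were highest in mMSC10, an Acta2-high cell, at 90.5 and 3.02 FPKM. Ppp1r12b and Actg2 were highest in mMSC6, an Acta2-low cell, at 6.99 and 25.05 FPKM. The other cell with Actg2 was mMSC3, an Acta2-high cell, at 6.79 FPKM. Myh11, Des, Synm, Synpo2, Pdlim3 and Ppp1r14a were listed at 0 in all 16 mMSCs. The defining heavy chain of mature smooth muscle was thus at 0 in Acta2-high and Acta2-low cells alike.

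**Figure D2:**
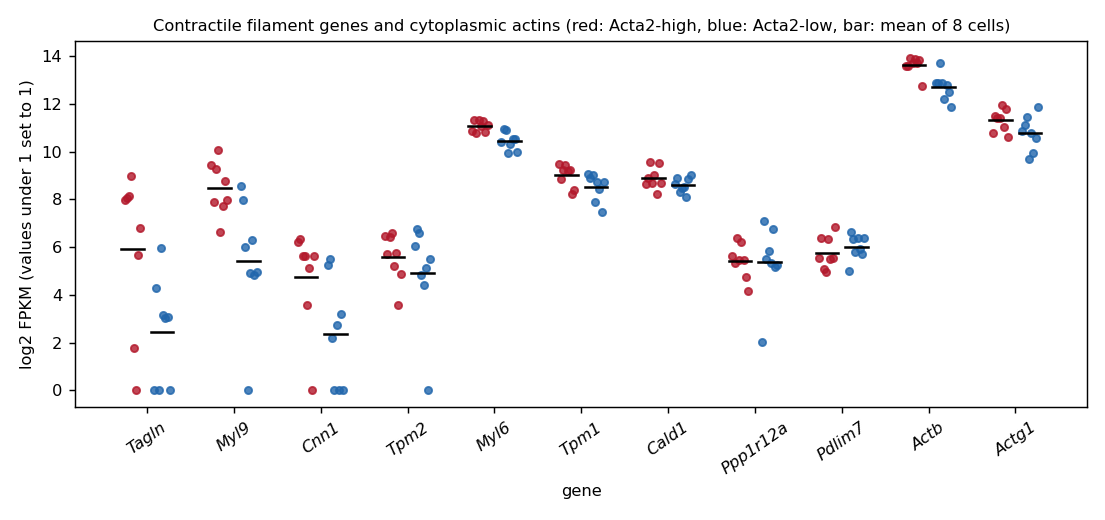
Log2 FPKM (values under 1 set to 1) of the 9 counted contractile filament genes and of Actb and Actg1, with 1 point per cell and a bar at the mean of the 8 Acta2-high (red) or Acta2-low (blue) cells. Tagln, Myl9 and Cnn1 show wide gaps between the means and cells at 0 in the low group. Tagln in mMSC8 and Cnn1 in mMSC12, both Acta2-high cells, are at 0 too. Myl6, Tpm1 and Actb are shifted by under 1, with less spread and with overlap between the groups.

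The cytoplasmic actins, which build the filaments of every cell, were also on the Acta2-high side but within the 2-fold step. Actb was 6781 to 15484 FPKM with a median of 13438 in the Acta2-high cells and 3774 to 13498 FPKM with a median of 7236 in the Acta2-low cells. Apart from mMSC10 at 6781 FPKM, every Acta2-high cell was at 12207 FPKM or more, and of the Acta2-low cells mMSC1 alone passed this. The difference was 0.90 (log2 means 13.6 ± 0.38 and 12.7 ± 0.55, SD, n = 8 cells each) and rho with Acta2 was 0.71. Actg1 differed by 0.53, with a rho of 0.31. The muscle actins were sparse, with Acta1 above 0 in 1 mMSC and Actc1 at 1 FPKM or more in 3.

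The regulators of contractile genes were mostly low or sparse, and they did not move as a group. Of 14 listed, 13 were in the table and 6 were counted, of which Tead1 and Mkl2 were higher, Prrx1 was lower and the median difference was -0.37, which ran from -0.65 without mMSC1 to -0.01 without mMSC8. Tead1, a DNA-binding partner of YAP, had a lowest, median and highest value of 5.83, 18.5 and 26.2 FPKM in the Acta2-high cells against 0, 7.76 and 16.1 FPKM in the Acta2-low cells, a difference of 1.15 with a rho of 0.60. Mkl2, a myocardin-related coactivator of serum response factor, had values of 2.45, 13.6 and 33.0 FPKM against 1.41, 6.76 and 20.6 FPKM, a difference of 1.06. Both fell under the step without mMSC9 and mMSC15, at 0.78 for Tead1 and 0.88 for Mkl2. Prrx1, a homeobox factor of mesenchyme, differed by -1.06, or -0.65 without mMSC7, Klf4, a repressor of smooth muscle genes, by -0.95, with a range of -1.55 without mMSC9 to -0.50 without mMSC2, Gata6 by -0.51, and Fhl2, a LIM coregulator, by -0.23.

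Among the regulators that were not counted, Myocd and Fhl1 are given here because of their values, being above 0 in 3 mMSCs each, all of them Acta2-high. Of 730 genes above 0 in exactly 3 mMSCs, 9.32% had all 3 among the Acta2-high cells. Myocd, which encodes myocardin, was 10.1 FPKM in mMSC2, 3.76 in mMSC8 and 1.21 in mMSC12, and was listed at 0 in the other 13 mMSCs. Fhl1, a LIM protein of striated and smooth muscle, was 173 FPKM in mMSC2, 42.0 in mMSC3 and 2.27 in mMSC14, and was likewise listed at 0 in the other 13. At these levels a listed 0 may be a transcript that was missed. Srf, serum response factor itself, reached 1 FPKM in 9 mMSCs and differed by 0.65. Mkl1 was above 0 in 4 Acta2-high and 2 Acta2-low cells, Elk1 in 2 and 3, and Klf5 in 1 and 1, and Mef2c was listed at 0 in all 16.

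Genes of stress fibres and focal adhesions, through which actin bundles are anchored to the substrate, were likewise on the Acta2-high side. All 33 listed genes were detected and 26 were counted. Of these 8 were higher (30.8%, against 9.13% of all counted genes) and none was lower. The median difference was 0.55, and 24 of the 26 were above 0, as were 52.0% of all counted genes. The count rested in part on mMSC9, without which 3 genes were higher in place of 8, while the median stayed between 0.47 and 0.62 when each cell was left out in turn.

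Flnc, a filamin that cross-links actin, differed by 2.02, with a lowest, median and highest value of 1.81, 9.42 and 22.1 FPKM in the Acta2-high cells and 0, 1.99 and 5.23 FPKM in the Acta2-low cells. Its level passed every Acta2-low cell in 7 of 8 Acta2-high cells, mMSC7 being the exception. Actn1, the alpha-actinin of stress fibres, was 1050, 925, 2074, 255, 1414, 245, 574 and 322 FPKM in the Acta2-high cells in order of falling Acta2, and 174 to 422 FPKM in the Acta2-low cells. The 5 Acta2-high cells above the Acta2-low range were not simply those with the most Acta2, as mMSC16 at 255 FPKM was within it. The difference in Actn1 was 1.44 (log2 means 9.35 ± 1.18 and 7.91 ± 0.42, SD, n = 8 cells each).

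Zyx, a tension-sensitive LIM protein of focal adhesions, had values of 197, 481 and 729 FPKM in the Acta2-high cells and 101, 175 and 409 FPKM in the Acta2-low cells, a difference of 1.10. Palld, the actin-bundling palladin, differed by 1.60. Vcl, vinculin, differed by 1.43 but by 0.68 without mMSC9, where it was listed at 0. The integrin-linked kinase gene Ilk, the talin gene Tln1 and Pdlim5 differed by 1.02, 1.02 and 1.01 and lay just past the step. Without mMSC9 these 3, Vcl and Zyx all fell under it, whereas Flnc, Palld and Actn1 stayed past it without any single cell. Myh9, the heavy chain of non-muscle myosin IIA, was below the step at 0.71 but had the fifth highest rho with Acta2 of all counted genes, 0.81, with 189 to 441 FPKM in the Acta2-high cells and 137 to 206 FPKM in the Acta2-low cells. Genes of actin turnover, such as profilins, thymosins and Arp2/3 subunits, leaned the same way by smaller steps. Over 13 counted genes their median difference was 0.29, and 11 were above 0. None was higher and 1 was lower (Pfn2, -1.02, or -0.54 without mMSC12 or mMSC16).

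In the list of YAP and TEAD targets, which respond to spreading and tension, 5 of 7 counted genes were higher, against 9.13% of all counted genes. With 7 counted genes the list is too short to be read against that share. Tead1 is a partner of YAP and is counted among the regulators too, and Ctgf is also in the TGF-beta list. Lats2, a kinase that restrains YAP, differed by 1.56, and Cyr61, a secreted matricellular protein, by 1.5, or 0.74 without mMSC15. Ctgf, its relative, differed by 1.20, or 0.45 without mMSC13. Tead1 differed by 1.15, and Amotl2, an angiomotin, by 1.05, or 0.66 without mMSC1, mMSC9 or mMSC13. The ranks followed Acta2 only loosely, with a median rho of 0.25. The median difference of 1.15 was 0.66 without mMSC13, and the count was 3 without mMSC9. Cyr61 showed the overlap, at 27.1 to 341 FPKM in the Acta2-high cells and 0 to 286 FPKM in the Acta2-low cells.

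The TGF-beta pathway showed no shift as a whole. Of 15 counted genes 3 were higher (20%, against 9.13% of all counted genes), none was lower, and the median difference of 0.09 was close to that of all genes. Among the 3 were Ctgf and Tgfb1i1, the focal adhesion protein Hic-5, with a difference of 1.17, or 0.73 without mMSC6, mMSC9 or mMSC13. Without mMSC13, where Ctgf was listed at 0, 1 of the 15 was higher. The ligand Tgfb1 was listed at 0 in all 16 mMSCs.

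Genes of the fibrillar matrix were higher in 6 of 20 counted (30%, against 9.13% of all counted genes) and lower in none. Their median difference was 0.59, or 0.39 without mMSC4. Loxl2, a lysyl oxidase that cross-links collagen, had 6.96, 17.5 and 19.99 FPKM in the Acta2-high cells and 0, 3.31 and 14.5 FPKM in the Acta2-low cells. Its difference was 2.16 and its rho 0.81. Postn, which encodes periostin, differed by 2.11, or 1.35 without mMSC4, and its lowest values of 70.6 FPKM in the Acta2-high and 1.24 FPKM in the Acta2-low cells stood further apart than the highest, 460 and 318 FPKM. Col12a1, a fibril-associated collagen, differed by 1.70, the collagen chaperone Serpinh1 by 1.42, Thbs1, a matricellular protein that activates latent TGF-beta, by 1.31, and Col1a1, the main chain of collagen I, by 1.08. Of the 6, Col1a1 fell under the step when 1 cell was left out, to 0.85 without mMSC4. Thbs2 stood on the other side, with a difference of -0.90, or -0.39 without mMSC3.

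**Figure D3:**
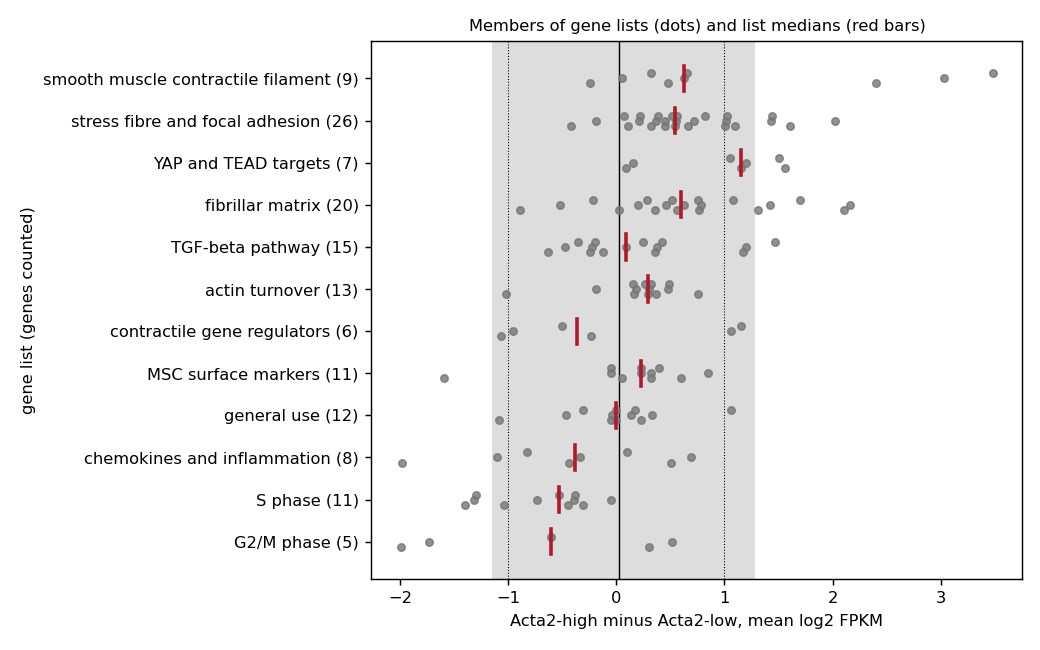
Difference in mean log2 FPKM between Acta2-high and Acta2-low mMSCs for the counted members of 12 gene lists (grey dots) with list medians (red bars), over the middle 90% of all 4677 genes (grey band), their median of 0.03 (solid line) and the step of 1 (dotted lines). Contractile filament, stress fibre, YAP and TEAD and matrix medians lie between 0.55 and 1.15, and the S phase and G2/M medians lie at -0.53 and -0.60.

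The mean log2 FPKM over the 9 counted contractile filament genes gives a level for each cell. It was 6.32 to 7.91 in the Acta2-high cells, with a median of 7.40, and 5.41 to 7.44 in the Acta2-low cells, with a median of 6.04. The 4 cells with the most Acta2 held the 4 highest means, 7.64 to 7.91, and mMSC15, an Acta2-low cell at 499 FPKM of Acta2, was next at 7.44. Over the 16 cells rho with Acta2 was 0.88, and 0.76 when all 21 genes of the list entered the mean. The same measure gave 0.77 for the stress fibre list and 0.60 for the matrix list. These cells share a capture run and FPKM scaling, and the lists were not independent of earlier results.

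**Figure D4:**
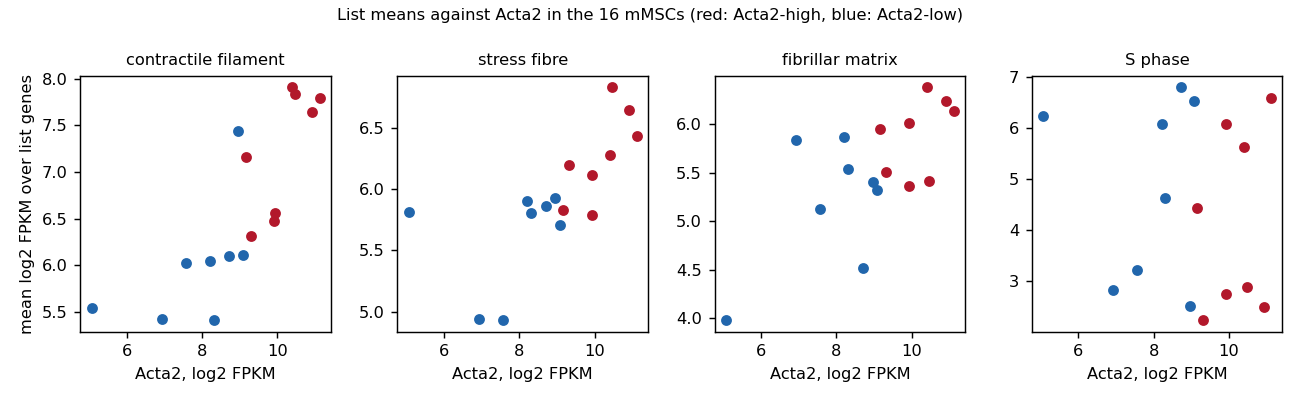
Mean log2 FPKM over the counted genes of 4 lists against Acta2 log2 FPKM in the 16 mMSCs (Acta2-high red, Acta2-low blue). The contractile filament mean follows Acta2 with a rho of 0.88, while the S phase mean takes high and low values at all Acta2 levels, with a rho of -0.16.

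The counted S phase genes had lower means in the Acta2-high cells, while their ranks followed Acta2 little and the G2/M genes were mixed. Of 11 counted S phase genes none was higher and 4 were lower, Mcm5 and Mcm3 of the replicative helicase, the ribonucleotide reductase subunit Rrm1 and Pcna, the polymerase clamp, with differences of -1.04 to -1.40. These 4 are 36.4% of the list, against 6.93% lower over all counted genes. The S phase and G2/M lists, with 11 and 5 counted genes, are too short to be read against such shares. Of 5 counted G2/M genes, Birc5 (survivin) and Cdk1, the mitotic kinase, were lower by 1.99 and 1.73, while Ccna2 differed by -0.60, Tpx2 by 0.30 and Cks2 by 0.52. Without mMSC9 and mMSC15, 8 of the 11 S phase and 3 of the 5 G2/M genes were lower, against 9.69% of all counted genes, and without mMSC3 alone 1 S phase gene was. The S phase mean ran from 2.23 to 6.57 in the Acta2-high cells and from 2.5 to 6.79 in the Acta2-low cells. It was 5.63 or more in 3 Acta2-high cells (mMSC14, mMSC16 and mMSC8) and 4 Acta2-low cells (mMSC1, mMSC11, mMSC4 and mMSC6), and 4.63 or less in the other 9. Its rho with Acta2 was -0.16, and the part of the cell cycle in the other differences was not tested.

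Immediate early and inflammatory genes held 1 gene, Ier3, that was among the furthest on the Acta2-low side. Ier3, a stress-induced early response gene, was 30.1, 32.1, 25.3, 7.58, 108, 212, 30.2 and 5.51 FPKM in the Acta2-high cells in order of falling Acta2, and 108 to 879 FPKM with a median of 161 in the Acta2-low cells. Of the Acta2-high cells mMSC8 lay within the Acta2-low range and mMSC7 just below it, the other 6 were at 32.1 FPKM or less, and the difference was -2.86. Klf6 and Fosl2, the other early genes counted, differed by -0.47 and -0.18. The chemokine genes Cxcl10 and Ccl5 were lower by 1.99 and 1.11 among 8 counted inflammatory genes, but Ccl5 rested on mMSC8, where it was listed at 0, and differed by 0.34 without it. Cxcl10 was listed at 0 in 1 Acta2-high cell, mMSC7, and differed by -1.04 without it.

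Mesenchymal surface markers did not separate the groups. Ly6a (Sca-1) was 434.7 to 3585 FPKM in the Acta2-high cells and 167 to 3900 FPKM in the Acta2-low cells, and the median difference over 11 counted markers was 0.23. Vcam1, an adhesion molecule, was the only one past the step, lower by 1.60, with medians of 3.25 FPKM in the Acta2-high cells and 11.5 FPKM in the Acta2-low cells. In the lineage lists of the study, 4 of 7 counted vascular smooth muscle genes were higher (Tagln, Cnn1, Pdgfa and Tead1). Of these, Tagln and Cnn1 are also in the contractile list, and Tead1 is also in the regulator and YAP lists. The osteogenic list had 3 of 12 higher (Nfatc1, Wisp2 and Col1a1) and none lower, the chondrogenic list 1 higher (Runx3) and 1 lower (Cd151) of 5, and the adipogenic list 2 of 5 higher (Cebpb and Slco2a1). Over all counted genes 9.13% were higher and 6.93% lower, and lists of 5 to 12 counted genes are too short to be read against these shares. Single cells set these counts, since 1 osteogenic gene was higher without mMSC1, no chondrogenic gene without mMSC1 and no adipogenic gene without mMSC9. Of the neurogenic list S100a1 alone was counted, with a difference of 0.10. The study applied these lists to the same cells. It reported that Acta2, Cnn1 and Tagln, and also Tubb, Slco2a1 and Angptl4, were higher in cells on the right of its principal component plot.

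Endothelial and skeletal muscle markers were at or near 0 in both groups, while some macrophage and cardiomyocyte markers were found in both. Of the endothelial list 6 of 7 genes were at 0 in all mMSCs, Pecam1 and Cdh5 among them, and the summed level was 0 in the Acta2-high cells and 0 to 10.8 FPKM in the Acta2-low cells. Of the skeletal muscle list 7 of 8 were at 0, Myod1 and Myog among them, and the sum was 0 to 9.13 FPKM in the Acta2-high and 0 in the Acta2-low cells. Of the macrophage and blood list, 5 of the 11 genes in the table were at 0, Ptprc and Lyz2 among them, and the sum was 3.1 to 230 FPKM in the Acta2-high and 39.2 to 369 FPKM in the Acta2-low cells. Cd14, a coreceptor for bacterial lipopolysaccharide in that list, reached 1 FPKM in 15 of the 16 mMSCs, with medians of 62.5 FPKM in the Acta2-high and 54.4 FPKM in the Acta2-low cells. The 9 cardiomyocyte genes summed to 0.08 to 63.5 FPKM and 0 to 65.4 FPKM, against 32772 to 59953 FPKM in HL1cm. Of 10 pericyte genes, Cspg4, Abcc9, Kcnj8 and Higd1b were at 0 throughout, and Pdgfrb, the receptor shared by pericytes and stromal cells, was found in all 16 mMSCs with a difference of 0.77.

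Among all counted genes the 10 furthest on the Acta2-high side were Adm, F3, Tagln, Psmg4, Myl9, Pld3, 9130401M01Rik, Hgs, Klf7 and Tmem119, with differences of 3.99 to 2.71. Adm, which encodes the vasodilator peptide adrenomedullin, was 146, 66.8, 15.4, 118, 69.2, 42.8, 29.6 and 680 FPKM in the Acta2-high cells in order of falling Acta2, and 0 to 49.4 FPKM with a median of 3.14 in the Acta2-low cells. Its highest value was in mMSC10, the Acta2-high cell with the least Acta2. F3, tissue factor, which starts coagulation, was 12.8 to 298 FPKM with a median of 123 in the Acta2-high cells and 0 to 45.2 FPKM with a median of 17.0 in the Acta2-low cells. Of these 10 genes Tagln alone had a cell at 0 among the Acta2-high cells, and every one had between 1 and 4 Acta2-low cells listed at 0. Many of these zeros lay in mMSC9 and mMSC15, the mMSCs with the fewest genes. In mMSC15 F3, Psmg4, Pld3, 9130401M01Rik, Hgs, Klf7 and Tmem119 were listed at 0. In mMSC9 this held for Adm, Psmg4, Pld3, 9130401M01Rik, Hgs and Klf7.

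The 10 furthest on the Acta2-low side were Isy1, Lsm4, Ier3, Nrn1, Mrpl48, Yipf1, Mrpl4, Ppp4c, Rfc2 and Zfp932, with differences of -3.38 to -2.44. Isy1, a splicing factor, was 13.4, 4.02, 0, 5.05, 17.9, 0, 13.2 and 0 FPKM in the Acta2-high cells and 68.7, 22.4, 37.1, 53.3, 30.3, 60.5, 67.3 and 23.3 FPKM in the Acta2-low cells. Lsm4 serves RNA processing, Mrpl48 and Mrpl4 are proteins of the mitochondrial ribosome and Rfc2 is a subunit of the clamp loader of replication. These genes, apart from Ier3, had 1 to 4 Acta2-high cells listed at 0.

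**Figure D5:**
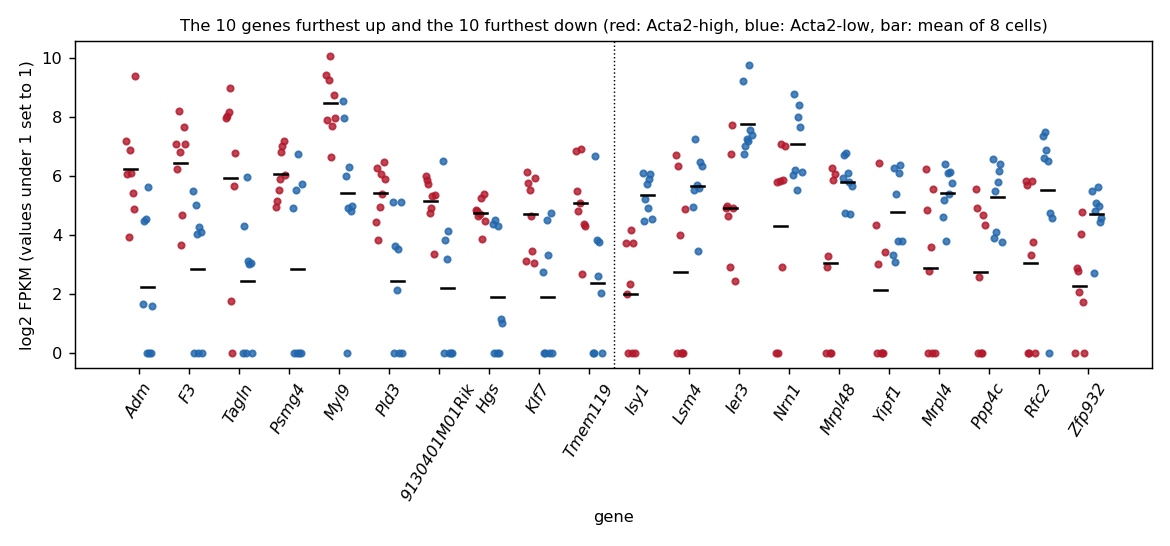
Log2 FPKM (values under 1 set to 1) of the 10 genes furthest on the Acta2-high side (left of the dotted line) and the 10 furthest on the Acta2-low side, with 1 point per cell and a bar at the mean of 8 cells (Acta2-high red, Acta2-low blue). Points at 0 on the side of the lower group are common to nearly all of these genes, and differences range from 3.99 for Adm to -3.38 for Isy1.

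A single gene lay higher in every Acta2-high cell than in any Acta2-low cell, 0.0214% of those counted, and a single gene lay lower in every one, also 0.0214%. The first was Zfml, a zinc finger gene, at 15.8 to 56.3 FPKM in the Acta2-high cells and 5.74 to 15.4 FPKM in the Acta2-low cells. The other was Isy1. Zfml also had the highest rho with Acta2, 0.86, and its difference of 1.13 became 0.96 without mMSC14.

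The genes whose ranks over the 16 mMSCs were most like those of Acta2 were, after Zfml, 3110003A17Rik (0.85), Ctnnd1 (0.84), Fdps (0.81), Myh9 (0.81), Loxl2 (0.81), 9130401M01Rik (0.77), Myl9 (0.77), Cnn1 (0.76) and Hgs (0.76). Of these 10 genes, Myh9, Myl9 and Cnn1 encode parts of the actomyosin apparatus, and Ctnnd1 encodes p120-catenin, which holds cadherins at the membrane. 3110003A17Rik was 287 to 687 FPKM in the Acta2-high cells and 166 to 293 FPKM in the Acta2-low cells. The 10 lowest values of rho, from -0.76 to -0.68, included those of Zfp263, Fastkd2, Nrd1, Snapin, Ccdc85b, Tceb3, Isy1, Glod4 and Bnip3l. The middle 90% of all counted genes lay between -0.43 and 0.45, with a median of 0.01.

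In the HL1cm, whose Acta2 overlapped that of the Acta2-high mMSCs, some contractile genes overlapped them too and others did not. Tagln was 18.4 to 790 FPKM, against 0 to 511 FPKM in the Acta2-high mMSCs. Myl9 was 997 to 2219 FPKM, above the Acta2-high median of 342 FPKM in all 5 cells, and Myocd was 57.2 to 151 FPKM. Cnn1 was listed at 0 in 4 of the 5 cells and at 9.32 FPKM in HL1cm3, and the cytoplasmic actin Actb was 805 to 3225 FPKM, below every mMSC. The cell types were compared without a test.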

How the data were processed

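RNA-seq was made from single cells and population controls. The authors aligned paired reads to mm10 with TopHat2 2.0.12 and estimated abundance with Cufflinks 2.2.1, and the FPKM values were used as deposited for 23284 genes in 23 libraries. FPKM holds no counts, so no count model was used and the precision of low values is unknown, and depth was judged from how many genes reached 1 FPKM and from an index, the percentile 5 of FPKM times length in kilobases over 5594 genes with 1 transcript of 1500 to 6000 bases in GENCODE M21.

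Symbols starting Mir or Snor (759) were left out and values under 1 FPKM set to 1 before log2. The 16 mMSCs were ranked by Acta2. Genes that reached 1 FPKM in 12 or more of them were counted, and mean log2 differences of at least 1 were called. The labels name no separate cultures or animals, so the cells were not taken as replicates and no test was run. SDs and Spearman's rho describe the cells only. The members and gene lists were chosen with earlier results of these data known. By rule the text names all contractile, regulator and actin genes, up to 4 genes of each other list with the largest differences and those behind its counts, the 10 furthest genes each way by difference and by rho, and genes without overlap. Gapdh, Ly6a, Thbs2, Tgfb1 and the genes of cholesterol synthesis fall outside it and were chosen after their values were seen. A few genes that the rule would name are not reported here. Alternatives changed the log scale, limit of detection, filter, scaling, summary, ranking and cells included. The scripts were tested on simulated data. Python 3.11.15, numpy 2.4.6, pandas 2.3.3 and matplotlib 3.10.9 were used, with a seed of 7.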

Additional observations from a re-analysis of the deposited data

Results flagged for a closer look

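Among 25 sets of single cells (the 9 counted contractile filament genes, Actb, Actg1 and Acta2 in the 8 Acta2-high and the 8 Acta2-low mMSCs, and Acta2 in the HL1cm), 5 held a cell far from the others by Dixon's ratio on log2 values. The nominal rate of about 1 in 20 cannot be set beside this count. The same cells recur in the sets, values under 1 FPKM were set to 1, and the Acta2 groups were cut by ranking. In the Acta2-low cells Myl9 was listed at 0 FPKM in mMSC5, with the next cell at 28.2 FPKM. Tpm2 was likewise listed at 0 in mMSC13, with the next at 21.4 FPKM, and Ppp1r12a was 4.10 FPKM in mMSC11, with the next at 36.3 FPKM. In the Acta2-high cells Cnn1 was listed at 0 in mMSC12, with the next at 11.9 FPKM, and Actb was 6781 FPKM in mMSC10, with the next at 12207 FPKM. Each of the 5 is a low value, 3 of them a listed 0.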

How the results depend on the processing

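No paired analysis was possible because the comparison lies within the single mMSCs and comes from no test, and the numbers that mMSC and HL1cm share only name cells. The contractile filament list kept a positive median difference (0.47 to 0.90) and a positive median rho under all 11 alternatives. Tagln and Cnn1 stayed between 2.76 and 5.98 and between 1.35 and 4.45. Some alternatives could not move these values. Ranking by Acta2 over Gapdh changed the group of no cell, so it repeated the main result. The gene filters cannot alter the difference of a single gene, and the median over cells cannot alter rho. The counts of higher and lower genes became 80 and 69 when values under 10 FPKM were set to 10. They became 739 and 575 for genes in at least 8 mMSCs, 980 and 773 in at least 4, and 1032 and 826 in at least 1, where more genes were counted, and 817 and 585 for the 4 highest against the 4 lowest cells. Under the same 5 settings the median rho of the contractile list, 0.58 as reported, was 0.67, 0.36, 0.31, 0.29 and 0.71. Rescaling the libraries moved the median of all genes by under 0.1 and turned no list median cited. Without mMSC9 and mMSC15, higher genes made up 45.9% of the calls against 56.9% with them. With each mMSC left out in turn, 361 to 487 genes were higher and 324 to 401 lower, the contractile median difference was 0.36 to 0.70, and its median rho 0.51 to 0.65. Depth limits what a listed 0 can show, and Tagln and Cnn1 were each listed at 0 in 3 Acta2-low cells and in 1 Acta2-high cell.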

Other observations

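Fdps stood among the genes most like Acta2, so the genes of cholesterol and isoprenoid synthesis were examined as a list chosen after its values were seen. Of 16 genes, 10 were counted, 9 had a difference above 0 and the median was 0.55, with Fdps (2.66) and Idi1 (1.96) higher and none lower. Over all counted genes 52.0% were above 0 and 9.13% were higher, and a list of 10 is too short to be read against these shares. Fdps, which makes farnesyl diphosphate, was 29.8 to 230 FPKM with a median of 103 in the Acta2-high cells and 0 to 87.0 FPKM with a median of 22.4 in the Acta2-low cells. No test was run.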
